A study of Mus musculus with 8 samples.

Results

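The 10 genes described here are a chosen part of the transforming growth factor beta (TGF-beta) pathway. They are the ligand genes Tgfb1 and Tgfb3, the receptor genes Tgfbr1 and Tgfbr2, the signal transducers Smad2 and Smad3, the inhibitory SMAD gene Smad7, and the corepressor genes Ski, Skil and Tgif1. They were taken by name from a deposited table of 24081 gene rows. All 10 were found, and all 10 were among the 11291 genes expressed highly enough to be tested. The RNA came from WEHI-control and WEHI-miR-148a, lines of WEHI-231, a mouse lymphoma with the features of immature B cells. Each line was sampled unstimulated and after 14 h with anti-IgM at 2 ug/ml, an antibody that crosslinks the B cell receptor, which gave 4 groups of 2 libraries. Cells of the lines are called control cells and miR-148a cells. WEHI-control is the reference for the line named for the microRNA miR-148a, and both lines were grown in the same medium. How the miR-148a line was made, and whether either line is 1 clone, is not given in the sources used here, so a difference between the lines cannot be told apart from a difference between 2 clones. Mature microRNA is not captured by polyA selection, and the label of the miR-148a line was not checked on it.

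TGF-beta ligands are secreted in a latent form and, once released, bind the type II receptor (Tgfbr2), which then activates the type I receptor (Tgfbr1). The activated type I receptor phosphorylates SMAD2 and SMAD3, which enter the nucleus with SMAD4 and regulate genes there. SMAD7 blocks this step at the receptor, and SKI, SnoN (the product of Skil) and TGIF1 hold SMAD target genes down, with SMAD7 and SnoN themselves known as products of SMAD target genes. In B cells the pathway is known for limiting proliferation and promoting apoptosis, and crosslinking of the B cell receptor in WEHI-231 cells is a classical model of growth arrest and death. The lines were compared to ask how miR-148a alters gene expression in cells undergoing this response.

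Because the lines are labelled by a microRNA, its sequence and the matches to it in the 10 genes are shown first. A microRNA pairs with messages mainly through its seed, bases 2 to 8 from the 5′ end, given in capitals. miR-148a-3p (GRCm38.p6, chr6:51269829-51269850, minus strand) shares its seed with miR-148b-3p and miR-152-3p, so that a match is a match to all 3. Sequences are from RefSeq.
miR-148a-3p: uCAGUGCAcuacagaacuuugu
miR-148b-3p: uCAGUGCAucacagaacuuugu
miR-152-3p: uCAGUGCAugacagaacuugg

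The longest 3′ UTR of each gene (GENCODE M21, GRCm38) was searched for TGCACTGA (8mer), TGCACTG (7mer-m8) and GCACTGA (7mer-A1), on the transcript strand, each place being counted once as its longest form. Tgfb3, Tgfbr1 and Tgfbr2 held 1 match each and Smad2 held 2 (1 7mer-m8 and 1 7mer-A1, not printed here), while Tgfb1, Smad3, Smad7, Ski, Skil and Tgif1 held 0. Of 10460 tested genes with an annotated 3′ UTR, 22.6% held at least 1 such match and 4.27% an 8mer. The matches in Tgfb3 (7mer-m8, chr12:86057275-86057297, minus strand), Tgfbr1 (8mer, chr4:47413974-47413996, plus strand) and Tgfbr2 (7mer-A1, chr9:116089699-116089721, minus strand) are printed with the match in capitals, as 1 example of each form.
Tgfb3: tcatatctTGCACTGcctggaat
Tgfbr1: tcattccaTGCACTGAaggaatg
Tgfbr2: tccagtccaGCACTGAgtcccag
A match is a stretch of letters in the annotation, and whether it is bound was not measured.

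Total counts ran from 5810227 to 18660373 per library, and replicate 1 of both anti-IgM groups was the shallowest. Levels are given in CPM, which divides the counts by the total of the library and its TMM factor, and 3 counts corresponded to 0.166 to 0.502 CPM. Of 9 B cell marker genes, 8 were in the table, and their summed level was 2027 to 2848 CPM. Of 7 T cell markers, 6 stayed under 1 CPM in every library, and Cd8b1 stood at 40.2 to 70.4 CPM. The fibroblast markers stayed under 1 CPM. The summed monocyte and macrophage markers were at 2.88 to 3.88 CPM in the unstimulated and 7.03 to 10.3 CPM in the anti-IgM control line, and at 2.54 to 3.14 and 11.8 to 14.8 CPM in the miR-148a line, with Lyz2, S100a8 and S100a9 at 0 in all 8 libraries and Itgam at no more than 8.86 CPM. Their part in the results was not tested.

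With anti-IgM, 6 of the 10 genes changed in the control line and 7 of 10 in the miR-148a line (edgeR quasi-likelihood F test on all genes and libraries, Benjamini-Hochberg adjusted p below 0.05). In both lines Tgfb3, Tgfbr2 and Smad3 rose and the corepressor genes Ski, Skil and Tgif1 fell, and Smad2 fell in the miR-148a line. The response was broad: 17.0% of all genes tested passed in the control line, 9.60% upward and 7.45% downward, and 28.7% in the miR-148a line, 14.7% upward and 14.0% downward. With upper quartile in place of TMM factors the split over all genes in the control line went from 1084 higher and 841 lower to 1306 higher and 621 lower, and the calls of the 10 genes did not change. Replicates share a number in the labels, and libraries of the same number deviated together. With the replicate number as a block in the fit, the miR-148a line had 8 of the 10 genes called, against 46.1% of all genes, and the control line the same 6, against 34.8%. The labels do not say whether the replicates of a group were separate cultures. P-values set the difference of group means against the spread of replicates, shared by the groups, and that spread may therefore be technical. Without the block it includes what libraries of the same number have in common. In bulk RNA a change in the share of cells in a state and a change of RNA per cell cannot be told apart. The value after ± is the standard error of the log2 fold change, unless SD is named. It was derived as the absolute log2 fold change divided by the square root of F, which is unreliable for very small changes.

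**Figure D1:**
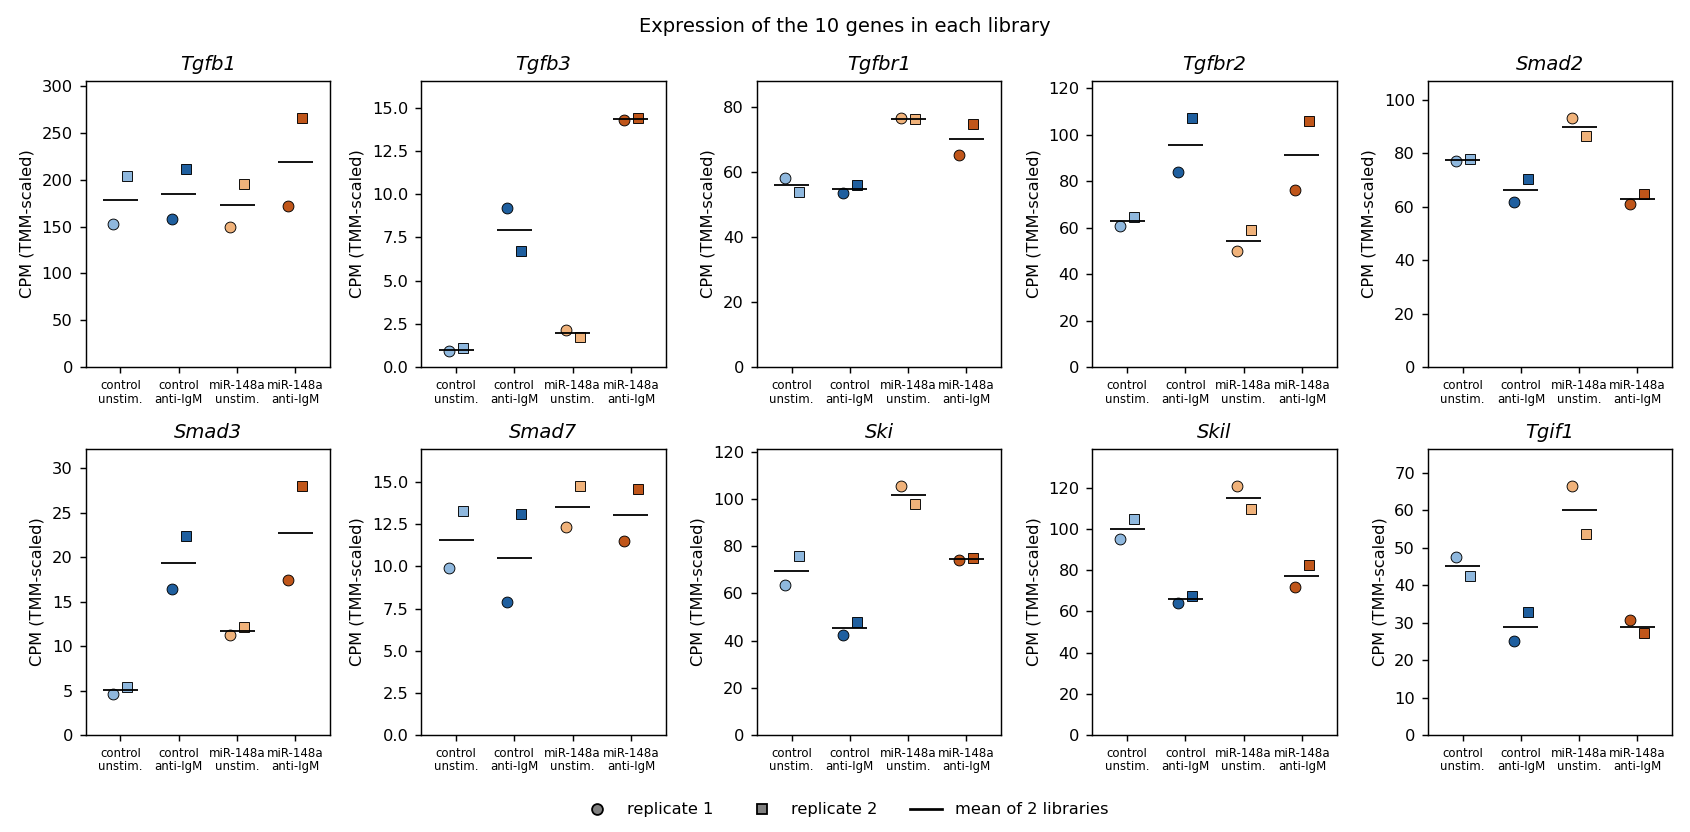
Level of each of the 10 genes in each of the 8 libraries, in CPM scaled with TMM factors on linear axes that start at 0, with circles for replicate 1, squares for replicate 2 and a line at the mean of the 2 libraries. Tgfb3 and Smad3 are higher in all 4 anti-IgM libraries than in all 4 unstimulated ones, Skil and Tgif1 are lower in all 4, and the conditions overlap for Smad7 in both lines.

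Tgfb1 (chromosome 7, 25687002 to 25705077), which encodes the main TGF-beta of leukocytes, had the highest level per kilobase of the 10 genes in every group. Its level in replicates 1 and 2 was 153 and 205 CPM in the unstimulated control line and 158 and 211 CPM with anti-IgM. Its level in miR-148a cells was 150 and 196 CPM unstimulated and 172 and 266 CPM with anti-IgM. Replicate 2 was higher than replicate 1 in every group, and the groups overlapped. The log2 fold change with anti-IgM was 0.05 ± 0.24 in control cells (adjusted p = 0.913) and 0.34 ± 0.24 in miR-148a cells (adjusted p = 0.312). Under the replicate block the change in miR-148a cells passed (edgeR adjusted p = 0.00347): it was 0.20 between the libraries numbered 1 and 0.44 between those numbered 2.

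Tgfb3 (chromosome 12, 86056745 to 86079041), which encodes the TGF-beta best known from palate development, was scarce without stimulation and had the highest fold change of the 10 genes. In the unstimulated control line it stood at 0.942 and 1.08 CPM, from 17 and 12 counts, and with anti-IgM at 9.21 and 6.70 CPM, from 55 and 77 counts. Tgfb3 in miR-148a cells stood at 2.15 and 1.77 CPM unstimulated and at 14.3 and 14.4 CPM with anti-IgM. All 4 anti-IgM libraries lay above all 4 unstimulated ones, and in each condition both miR-148a libraries lay above both control libraries. The rise was 7.74-fold in control cells (log2 fold change 2.95 ± 0.28, adjusted p = 0.000737) and 7.30-fold in miR-148a cells (2.87 ± 0.25, adjusted p = 0.000346). Among the 11291 genes tested it ranked 38 and 39 from the highest log2 fold change in the control and miR-148a lines. Both calls held in all 8 fits that left out 1 library. The annotation places exons of Gm37804 and Gm48008 on the opposite strand of Tgfb3, and whether the counting used strand is not given in the sources used here, so reads of those genes could be included.

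The type I receptor gene Tgfbr1 (chromosome 4, 47353222 to 47414931) did not pass in either response. It stood at 58.3 and 54.1 CPM in the unstimulated and 53.7 and 56.2 CPM in the anti-IgM control line. The miR-148a cells had 76.6 and 76.5 CPM unstimulated and 65.5 and 75.0 CPM with anti-IgM. The 2 conditions overlapped in the control line, and all 4 miR-148a libraries lay above all 4 control libraries. The log2 fold change with anti-IgM was -0.03 ± 0.11 in control cells (adjusted p = 0.878) and -0.12 ± 0.10 in miR-148a cells (adjusted p = 0.430).

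The type II receptor gene Tgfbr2 (chromosome 9, 116084293 to 116175360), whose product is the one that binds free ligand, rose in both lines. Its level went from 60.8 and 64.5 CPM to 84.0 and 107 CPM in the control line. The miR-148a cells went from 49.9 and 58.8 CPM to 76.3 and 106 CPM. The anti-IgM libraries lay above the unstimulated ones in both lines, and within each anti-IgM group replicate 2 was the higher. The rise was 1.53-fold in control cells (log2 fold change 0.62 ± 0.17, adjusted p = 0.0413) and 1.68-fold in miR-148a cells (0.75 ± 0.17, adjusted p = 0.0120). The call in the control line was lost without any of 6 libraries: replicate 1 (0.57, adjusted p = 0.166) or 2 (0.65, adjusted p = 0.135) of the unstimulated control line, replicate 1 (0.77, adjusted p = 0.0561) or 2 (0.42, adjusted p = 0.219) of the anti-IgM control line, and replicate 1 (0.61, adjusted p = 0.0570) or 2 (0.61, adjusted p = 0.0557) of the unstimulated miR-148a line. The call in the miR-148a line was lost without replicate 1 of its unstimulated (0.63, adjusted p = 0.101) or replicate 2 of its anti-IgM group (0.49, adjusted p = 0.101).

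Smad2 (chromosome 18, 76241580 to 76310963) and Smad3 (chromosome 9, 63646767 to 63757994) encode the 2 SMADs that TGF-beta receptors phosphorylate. SMAD3 binds DNA directly, and the main form of SMAD2 does so only through partners. Smad2 stood at 77.2 and 77.8 CPM in the unstimulated and 61.9 and 70.4 CPM in the anti-IgM control line. Smad2 in miR-148a cells went from 93.1 and 86.6 CPM to 61.0 and 64.6 CPM. The anti-IgM libraries were the lower in both lines. The log2 fold change was -0.22 ± 0.10 in the control line, which did not pass (adjusted p = 0.177), and -0.51 ± 0.10 in miR-148a cells, which did (adjusted p = 0.00665). The latter was lost without replicate 1 of the unstimulated miR-148a line (-0.47, adjusted p = 0.0619).

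Smad3 stood at 4.60 and 5.41 CPM in the unstimulated control line, the lowest of the 4 groups, and at 16.4 and 22.4 CPM with anti-IgM. Its level in miR-148a cells went from 11.3 and 12.1 CPM to 17.4 and 28.0 CPM. The unstimulated miR-148a libraries lay between the unstimulated and the anti-IgM control libraries, and the 2 anti-IgM groups overlapped. The rise was 3.96-fold in the control line (log2 fold change 1.99 ± 0.25, adjusted p = 0.00208), the rank of 131 from the highest of all genes tested, and 1.97-fold in the miR-148a line (0.98 ± 0.23, adjusted p = 0.0126). The control line's call held in all 8 fits that left out 1 library. That in the miR-148a line was lost without replicate 1 of its unstimulated group (0.92, adjusted p = 0.0845) or replicate 2 of its anti-IgM group (0.57, adjusted p = 0.140).

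Smad7 (chromosome 18, 75367529 to 75395935), the inhibitory SMAD gene, passed in no comparison. It stood at 9.92 and 13.3 CPM in the unstimulated and 7.87 and 13.1 CPM in the anti-IgM control line, and at 12.3 and 14.8 and then 11.5 and 14.6 CPM in the miR-148a line. Replicate 2 was higher than replicate 1 in every group, and all groups overlapped. The log2 fold change with anti-IgM was -0.08 ± 0.25 in control cells (adjusted p = 0.862) and -0.04 ± 0.25 in miR-148a cells (adjusted p = 0.928).

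The 3 corepressor genes fell in both lines. Ski (chromosome 4, 155154075 to 155222592) encodes a protein that binds SMAD2, SMAD3 and SMAD4 and recruits histone deacetylases. It went from 63.4 and 75.8 CPM to 42.5 and 47.7 CPM in the control line. Among miR-148a cells, Ski went from 105 and 97.8 CPM to 74.3 and 74.8 CPM. The anti-IgM miR-148a libraries lay within the range of the unstimulated control libraries. Its log2 fold change was -0.62 ± 0.12 in control cells (adjusted p = 0.0107) and -0.45 ± 0.12 in miR-148a cells (adjusted p = 0.0208).

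Skil (chromosome 3, 31095058 to 31122577) encodes SnoN, the close relative of SKI that TGF-beta signalling degrades. It went from 95.3 and 105 CPM to 64.1 and 67.7 CPM in the control line. The miR-148a cells went from 121 and 110 CPM to 71.7 and 82.7 CPM. Both anti-IgM groups lay below both unstimulated groups. Its log2 fold change was -0.60 ± 0.11 in control cells (adjusted p = 0.00981) and -0.57 ± 0.11 in miR-148a cells (adjusted p = 0.00603).

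Tgif1 (chromosome 17, 70844205 to 70853546) encodes a homeobox protein that represses genes together with SMAD2. It went from 47.7 and 42.5 CPM to 25.1 and 32.8 CPM in the control line. Tgif1 in miR-148a cells went from 66.4 and 53.6 CPM to 30.6 and 27.3 CPM. The anti-IgM libraries of the 2 lines overlapped, and the unstimulated miR-148a libraries lay above the unstimulated control libraries. The fall was 1.54-fold in control cells (log2 fold change -0.62 ± 0.16, adjusted p = 0.0296) and 2.08-fold in miR-148a cells (-1.06 ± 0.16, adjusted p = 0.00188), where it was called in all 8 fits that left out 1 library.

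With the replicate block and all 8 libraries, Ski, Skil and Tgif1 passed in the control line (edgeR adjusted p = 0.000396, 0.000238 and 0.00308). They also passed in miR-148a cells (adjusted p = 0.0015, 0.000155 and 1.86e-05). Without the block, the calls other than that of Tgif1 in miR-148a cells were lost in some fits that left out 1 library. The calls over all genes changed in those fits too. In the control line, none of the 3 passed without replicate 2 of the unstimulated group (Ski -0.49, adjusted p = 0.0770, Skil -0.54, adjusted p = 0.0732, Tgif1 -0.71, adjusted p = 0.0711) or without replicate 1 of the anti-IgM group (Ski -0.54, adjusted p = 0.0754, Skil -0.57, adjusted p = 0.0649, Tgif1 -0.46, adjusted p = 0.148). Tgif1 was also lost without replicate 1 of the unstimulated group (-0.54, adjusted p = 0.135). In the miR-148a line, Skil was lost without replicate 1 of the unstimulated group (-0.51, adjusted p = 0.0565). Ski was lost there without replicate 1 (-0.39, adjusted p = 0.135) or 2 (-0.50, adjusted p = 0.0537) of the unstimulated group, and likewise when replicate 1 (-0.45, adjusted p = 0.0568) or 2 (-0.45, adjusted p = 0.0860) of the anti-IgM group was left out. Every one of these values kept its sign.

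Within libraries of the same number, the direction of each call was the same in both pairs. All differences of log2 CPM given here were taken with a prior count of 2, which makes them smaller for scarce genes such as Tgfb3. The difference of log2 CPM in the control line was 3.07 between the libraries numbered 1 and 2.45 between those numbered 2 for Tgfb3, 1.8 and 2.01 for Smad3, and 0.47 and 0.73 for Tgfbr2. It was -0.57 and -0.66 for Ski, -0.57 and -0.63 for Skil, and -0.92 and -0.37 for Tgif1. In the miR-148a line it was 2.64 and 2.90 for Tgfb3, 0.62 and 1.19 for Smad3, and 0.61 and 0.84 for Tgfbr2. It was -0.61 and -0.42 for Smad2, -0.50 and -0.38 for Ski, -0.75 and -0.41 for Skil, and -1.11 and -0.97 for Tgif1. The widest gaps between the pairs were those of Tgfb3 and Tgif1 in the control line and Smad3 in the miR-148a line.

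**Figure D2:**
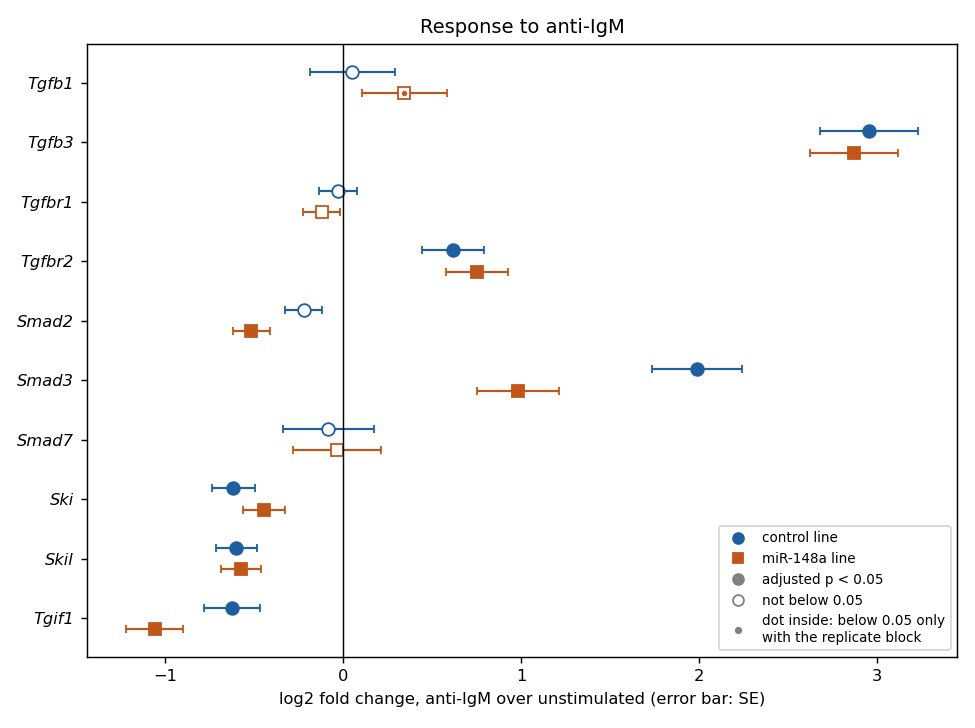
Log2 fold change of each gene with anti-IgM over unstimulated in the control line (circles) and the miR-148a line (squares), with bars of 1 standard error; filled symbols passed at an adjusted p below 0.05, and a dot inside an open symbol marks a pass only with the replicate block. Tgfb3, Smad3 and Tgfbr2 lie to the right in both lines and Ski, Skil and Tgif1 to the left, and the lines lie farthest apart at Smad3, at 1.99 and 0.98.

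The miR-148a line was then compared with the control line within each condition. Without stimulation, none of the 10 genes passed, against 0.487% of all genes tested. Of all 11291 genes tested, 720 had an unadjusted p below 0.05 and a higher value in the miR-148a line, and 566 a lower one. Among the 10 genes, 5 had an unadjusted p below 0.05. Those 5 were Smad3 (log2 fold change 1.24 ± 0.25, adjusted p = 0.0789), Ski (0.55 ± 0.12, adjusted p = 0.0885), Tgfbr1 (0.44 ± 0.10, adjusted p = 0.115), Tgfb3 (0.96 ± 0.30, adjusted p = 0.249) and Tgif1 (0.41 ± 0.15, adjusted p = 0.326), all with higher values in the miR-148a line. Under the replicate block, 4 of them were called, against 7.29% of all genes: Smad3 (edgeR adjusted p = 0.000815), Ski (adjusted p = 0.00249), Tgfbr1 (adjusted p = 0.00730) and Tgif1 (adjusted p = 0.0488). DESeq2 called 2, Smad3 (adjusted p = 0.00636) and Ski (adjusted p = 0.0271), where it called 68 higher and 91 lower of all genes. By limma-voom 0 of the 10 were called, and 28 higher and 29 lower of all genes. Smad3 also passed when replicate 1 (edgeR adjusted p = 0.0415) or 2 (adjusted p = 0.0400) of the anti-IgM miR-148a line was left out, at 1.24 in both fits, libraries outside the comparison that enter through the shared spread. Between libraries of the same number, the difference of log2 CPM was 1.26 and 1.14 for Smad3, 0.73 and 0.37 for Ski, 0.39 and 0.50 for Tgfbr1, 1.05 and 0.63 for Tgfb3, and 0.48 and 0.33 for Tgif1.

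With anti-IgM, 1 of the 10 genes passed, against 2.52% of all genes tested. Ski was 1.65-fold higher in the miR-148a line (log2 fold change 0.72 ± 0.12, adjusted p = 0.0263), at 74.3 and 74.8 CPM against 42.5 and 47.7 CPM. That call was lost without replicate 1 of the unstimulated miR-148a line (adjusted p = 0.0507), replicate 1 (adjusted p = 0.103) or 2 (adjusted p = 0.137) of the anti-IgM control line, and replicate 1 (adjusted p = 0.0520) or 2 (adjusted p = 0.118) of the anti-IgM miR-148a line. The log2 fold change of Ski stayed between 0.64 and 0.81 in these fits, and it was 0.80 and 0.65 between libraries of the same number. With the replicate block, 3 genes passed, against 16.1% of all genes: Ski (edgeR adjusted p = 0.000571), Tgfb3 (adjusted p = 0.00621) and Tgfbr1 (adjusted p = 0.0210). Without the block the values were 0.88 ± 0.22 for Tgfb3 (adjusted p = 0.0841) and 0.36 ± 0.11 for Tgfbr1 (adjusted p = 0.131). Between libraries of the same number they were 0.63 and 1.08 for Tgfb3 and 0.28 and 0.42 for Tgfbr1. Tgfbr2 was at -0.07 ± 0.17 (adjusted p = 0.887) and Smad2 at -0.08 ± 0.11 (adjusted p = 0.763). Among the genes with a seed match, Tgfb3 and Tgfbr1 had higher values in the miR-148a line in both conditions. Tgfbr2 had lower values in both, with -0.20 ± 0.17 unstimulated (edgeR adjusted p = 0.7535). Smad2 was higher unstimulated (0.21 ± 0.10, edgeR adjusted p = 0.478) and lower with anti-IgM. Of the genes without a match, Smad3, Smad7, Ski and Skil were higher in both conditions, and Tgfb1 and Tgif1 changed sign between them. Whether the values relate to the matches was not tested.

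**Figure D3:**
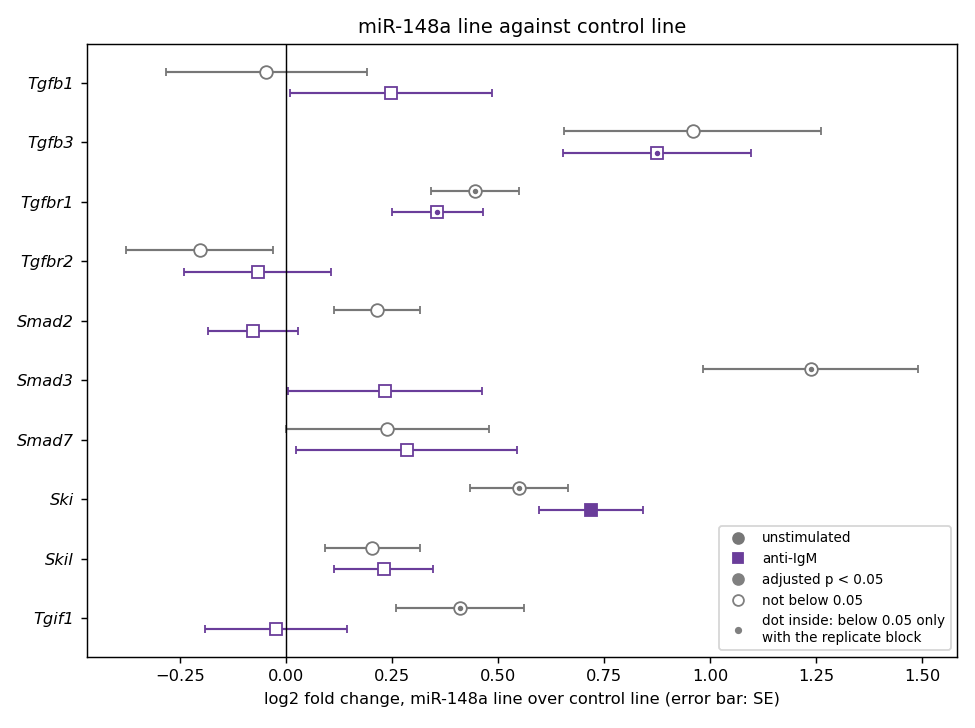
Log2 fold change of each gene in the miR-148a line over the control line, unstimulated (circles) and with anti-IgM (squares), with bars of 1 standard error; the filled symbol passed at an adjusted p below 0.05, and dots inside open symbols mark a pass only with the replicate block. Ski lies at 0.55 and 0.72 in the 2 conditions and Tgfbr1 at 0.44 and 0.36, while Smad3 lies at 1.24 unstimulated and 0.23 with anti-IgM.

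Whether the 2 lines responded differently was tested as the difference between the responses, which share no libraries. None of the 10 genes passed, and none of all genes tested did (0%). At an unadjusted p below 0.05, 246 genes were higher and 238 lower in the response of the miR-148a line. DESeq2 called 0 higher and 1 lower and limma-voom called none, while the replicate block called 11 genes (0.0974%), none of them among the 10. Smad3 had the largest difference of the 10: its rise in log2 units was smaller in miR-148a cells (-1.0 ± 0.34, 95% interval -1.78 to -0.23, unadjusted p = 0.0163). It failed after adjustment over all genes in edgeR, at an adjusted p of 0.9996, and at 0.108 with the block. Its levels were farther apart between the lines before stimulation than after it, as given above. The intervals of the others all included 0. They ran from -0.94 to 0.07 for Tgif1, from -0.63 to 0.04 for Smad2 and from -0.92 to 0.75 for Tgfb3, so differences of these sizes between the lines were not excluded.

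Levels were compared between genes per kilobase of the longest coding transcript. In the unstimulated control line the order began with Tgfb1 at 70.4 to 94.1 CPM per kb and Tgif1 at 24.8 to 27.8. Skil, Ski, Tgfbr1, Smad2 and Tgfbr2 followed between 7.51 and 15.7, with Tgfbr1 and Smad2 overlapping. Smad7 came next at 2.32 to 3.10, then Smad3 at 0.904 to 1.06, and Tgfb3 was last at 0.279 to 0.320 CPM per kb. With anti-IgM, Tgfbr2 moved from the seventh to the third place in the control line, at 10.4 to 13.2 CPM per kb. Smad3 moved from below Smad7 to above it in both lines, at 3.22 to 4.39 against 1.84 to 3.07 in the control line. In the anti-IgM miR-148a line Tgfb3 reached 4.23 to 4.26 CPM per kb, above Smad7 at 2.69 to 3.41. The place of Tgif1 depended on the length used, since per kilobase of all annotated exons it was at 7.56 to 8.47 in the unstimulated control line, the sixth of the 10. By that length Skil went from place 4 to place 6 in the anti-IgM control line. Smad3 and Smad7 then overlapped in the anti-IgM miR-148a line, at 3.15 to 5.05 and 2.55 to 3.23.

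The balance between related genes moved with these changes. Smad3 made up 8.66% and 10.0% of the summed Smad2 and Smad3 level per kilobase in the unstimulated control line and 29.6% and 33.5% with anti-IgM. Its share in miR-148a cells was 16.1% and 18.2% before and 31.2% and 40.8% after anti-IgM. The unstimulated miR-148a libraries thus lay between the 2 conditions of the control line, without overlap. The ratio of Tgfbr2 to Tgfbr1 per kilobase went from 0.742 and 0.849 to 1.11 and 1.35 in the control line and from 0.463 and 0.547 to 0.829 and 1.0 in the miR-148a line. Tgfb3 stayed a small part of the 2 ligand messages, at 0.394% and 0.339% against 3.61% and 2.00% in the control line and 0.911% and 0.577% against 5.08% and 3.37% in the miR-148a line. The length of Tgfb1 enters this last share: per kilobase of all exons the highest value was 11.0%. These shares and ratios are descriptions and were not tested.

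**Figure D4:**
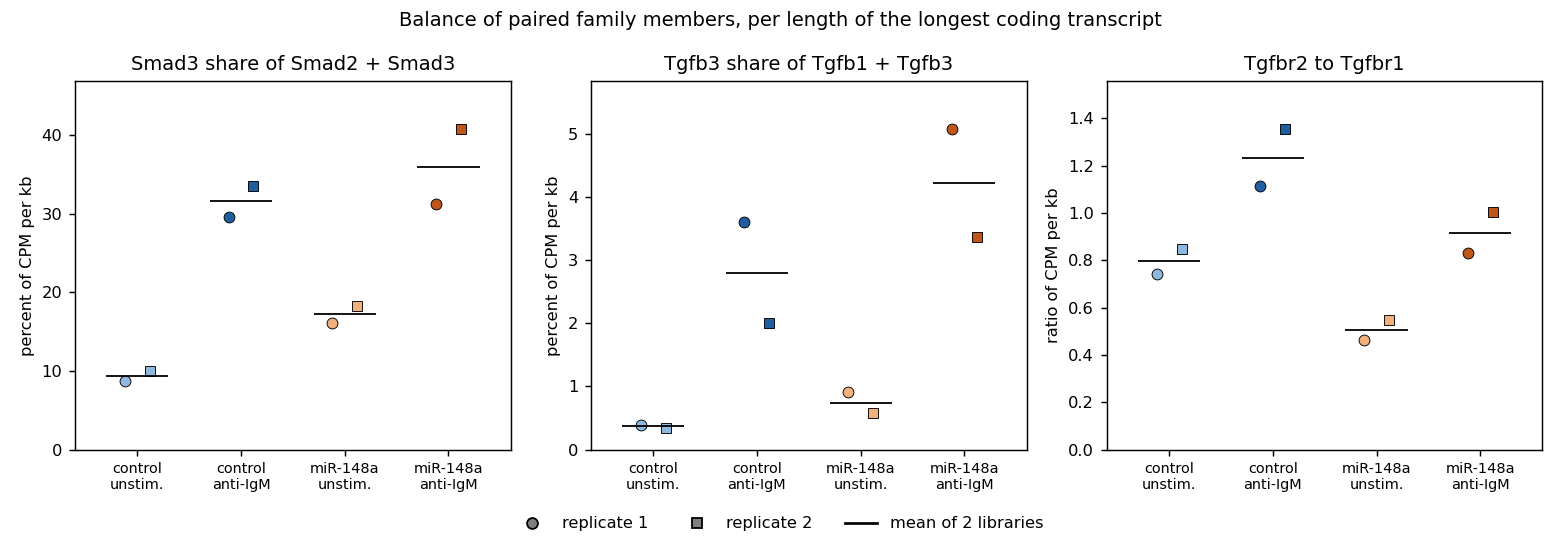
Share of Smad3 in Smad2 plus Smad3, share of Tgfb3 in Tgfb1 plus Tgfb3 (both in percent) and ratio of Tgfbr2 to Tgfbr1, from CPM per kilobase of the longest coding transcript, in each library (circles replicate 1, squares replicate 2, line at the mean of 2). Every anti-IgM library lies above both unstimulated libraries of its line, and the Smad3 share reaches 40.8% in replicate 2 of the anti-IgM miR-148a line.

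Genes downstream of SMADs were examined in a list of 30 reported SMAD target genes, of which 19 were tested. Those not tested included Pmepa1, Ctgf, Cyr61, Tgfbi and Id1, at no more than 0.329 CPM in any library. Smad7 and Skil, also known as SMAD target genes, are not on the list: Smad7 did not pass and Skil fell in both lines. In the control line 9 of the 19 rose and 3 fell, where 17.0% of all genes were called, with a median log2 fold change of 0.62 against 0.01 for all genes. In the miR-148a line 11 rose and 1 fell, where 28.7% of all genes were called, with a median of 0.54 against 0.00. With the replicate block 10 rose and 3 fell in the control line (34.8% of all genes called) and 13 rose and 4 fell in the miR-148a line (46.1%). DESeq2 called 852 higher and 879 lower of all genes in the control line, and 8 higher and 2 lower of the list. In the miR-148a line it called 1360 higher and 1375 lower of all genes, and 9 higher and 1 lower of the list. Many genes of the list also answer to other signals, and the list was chosen with results of these libraries known. The counts of the list depended on single libraries in both lines, as did those over all genes. Leaving 1 library out left a group with 1 library, whose spread was then assumed.

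The rises in the control line were largest in Id2, Jun and Id3. Id2 and Id3 encode inhibitors of bHLH factors and are known best as targets of the bone morphogenetic protein (BMP) branch. Id3 rose from 14.6 ± 3.80 to 46.2 ± 3.24 CPM (SD, n = 2) in the control line and from 14.1 ± 2.85 to 45.2 ± 10.0 CPM in the miR-148a line, log2 fold changes of 1.64 ± 0.21 and 1.69 ± 0.22 (edgeR adjusted p = 0.00234 and 0.00106), called in all 8 fits that left out 1 library. Id2 was called in both lines from at most 29 counts a library, and in 2 of those 8 fits in each. DESeq2 did not call it in the control line.

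Cdkn1a, the gene of the cell cycle inhibitor p21, rose with log2 fold changes of 1.33 ± 0.27 in control cells (adjusted p = 0.0123) and 1.26 ± 0.27 in miR-148a cells (adjusted p = 0.00795). Bmf, which encodes a pro-apoptotic BCL2 family protein, rose by 1.5 ± 0.33 (adjusted p = 0.0182) and 1.89 ± 0.33 (adjusted p = 0.00346). Jun, an AP-1 subunit gene, rose by 1.84 ± 0.38 (adjusted p = 0.0138) and 1.39 ± 0.35 (adjusted p = 0.0180). Bcl2l11, the gene of Bim and a reported target of miR-148a, rose by 1.52 ± 0.16 in the control line and 0.58 ± 0.17 in miR-148a cells (adjusted p = 0.00117 and 0.0284). Myc, a gene that TGF-beta is known to repress in many cells, fell in both lines, by 1.5 ± 0.31 and 2.08 ± 0.32 on the log2 scale (edgeR adjusted p = 0.0141 and 0.00208). Snai1, a classical TGF-beta-induced gene, went the other way from that role in the control line at -1.05 ± 0.31 (adjusted p = 0.0496), a call that no fit with 1 library left out kept. Its values were 3.82 and 4.06 CPM unstimulated and 1.51 and 2.17 CPM with anti-IgM. Skp2, a ubiquitin ligase gene of the cell cycle, fell there too (-0.54 ± 0.11, adjusted p = 0.0136). The calls of Cdkn1a, Bmf and Myc in miR-148a cells and of Bcl2l11 in control cells were kept in all 8 fits that left out 1 library, and the other calls named with them in 0 to 7 of 8. Cdkn1a, Bcl2l11, Snai1 and Skp2 were added to the named genes after their values were seen.

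**Figure D5:**
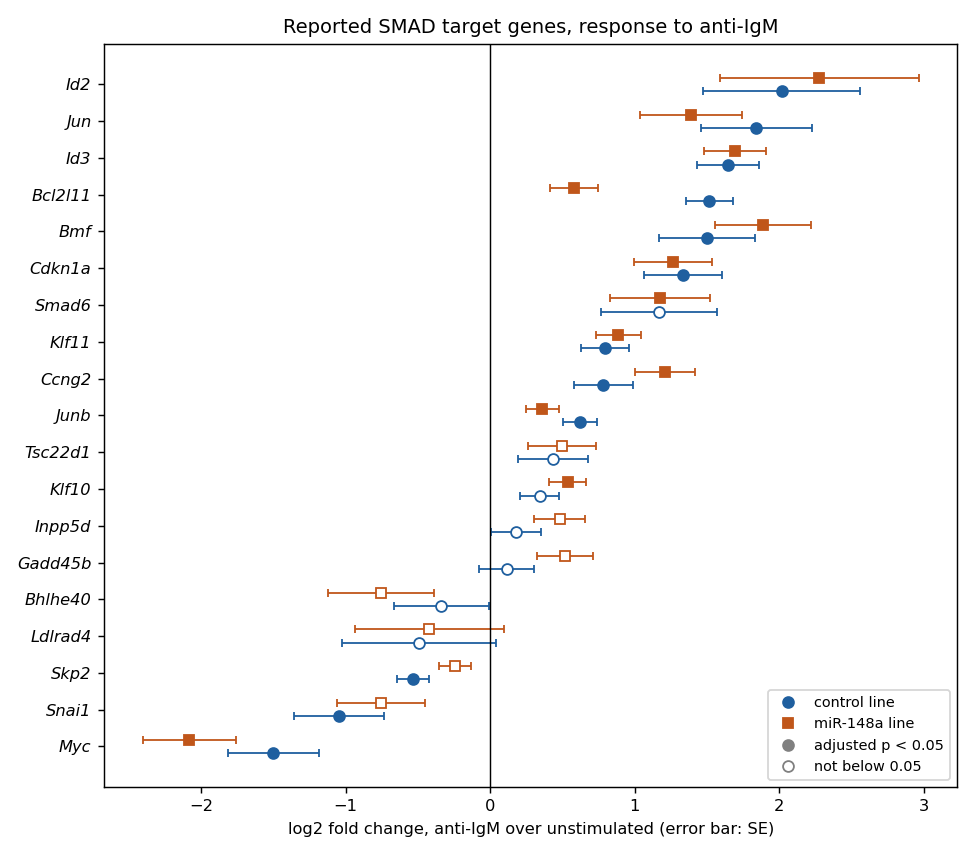
Log2 fold change with anti-IgM over unstimulated of 19 tested genes on the list of reported SMAD targets, in the control line (circles) and the miR-148a line (squares), ordered by the control line, with bars of 1 standard error and filled symbols for an adjusted p below 0.05. Id2, Jun and Id3 lie farthest right and Myc farthest left in the control line, and the Id2 value in the miR-148a line starts from 2 and 4 counts in its 2 unstimulated libraries.

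The rest of the pathway was counted in 5 further lists. In the order described, their median log2 fold changes were 0.48, 0.30, -0.09, 0.04 and -0.14 in the control line, against 0.01 for all genes, and 1.07, 0.15, 0.04, -0.03 and -0.18 in the miR-148a line, against 0.00. Their counts stand beside 17.0% of all genes called in the control line and 28.7% in the miR-148a line, or 34.8% and 46.1% with the replicate block. By DESeq2, 852 of all genes were called higher and 879 lower in the control line, and 1360 higher and 1375 lower in the miR-148a line. Of 23 other ligand genes of the family, 4 were tested and 1 rose in the control line and 2 in the miR-148a line. Gdf11, which encodes a ligand that signals through SMAD2 and SMAD3, rose from 1.28 ± 0.24 to 5.20 ± 0.22 CPM (SD, n = 2) in the control line (log2 fold change 2.04 ± 0.40, edgeR adjusted p = 0.0108). Among miR-148a cells it rose from 1.23 ± 0.55 to 3.44 ± 1.14 CPM (1.51 ± 0.41, adjusted p = 0.0241). Bmp8a, a BMP ligand gene, rose in the miR-148a line (1.93 ± 0.45, adjusted p = 0.0117) from at most 12 counts a library without stimulation. Of 19 genes of latent ligand storage and activation, 7 were tested, and 1 rose in the control line and 0 passed in the miR-148a line. There 2 had an unadjusted p below 0.05, as did 2344 higher and 2259 lower of all genes, and DESeq2 called 1 of the 7. The gene called in the control line was Furin (0.55 ± 0.11, adjusted p = 0.0100), whose protease product cleaves the TGF-beta precursor. With the replicate block 4 of the 7 rose in the control line and 2 in the miR-148a line. The most highly expressed of the 7, Itgb1 and Ltbp4, had log2 fold changes of 0.15 ± 0.14 and -0.13 ± 0.12 in miR-148a cells (adjusted p = 0.477 and 0.441). Lrrc32 had the largest log2 fold change of the 7 in the control and miR-148a lines, at 1.45 ± 0.48 and 1.17 ± 0.49. It did not pass (edgeR adjusted p = 0.0678 and 0.105) but did with the replicate block (adjusted p = 0.0018 and 0.00478). It was added to the named genes after its values were seen.

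Of 13 other receptor genes, 7 were tested. In the control line 1 rose and 0 fell, against 17.0% of all genes called, and in the miR-148a line 1 rose and 1 fell, against 28.7%. Acvr1b, which encodes the type I receptor for activin and signals through SMAD2 and SMAD3, rose in control cells (0.51 ± 0.12, adjusted p = 0.0233) and in miR-148a cells (0.58 ± 0.12, adjusted p = 0.00751). Acvr2a, an activin type II receptor gene, fell in the miR-148a line (-0.50 ± 0.16, adjusted p = 0.0444). DESeq2 did not call Acvr1b in the control line or Acvr2a in the miR-148a line. Under the replicate block 1 rose and 3 fell in the miR-148a line.

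Of 22 other SMADs and SMAD partners, 19 were tested. In the control line 1 rose and 1 fell, against 17.0% of all genes called, and in the miR-148a line 2 rose and 2 fell, against 28.7%. Of the 19, DESeq2 called 2 higher and 1 lower in the control line and 1 higher and 1 lower in the miR-148a line. Smad4, the partner of all receptor-regulated SMADs, did not pass in either line (-0.04 ± 0.10 and -0.07 ± 0.10, edgeR adjusted p = 0.828 and 0.639; it was added to the named genes after its values were seen). Smad5, which encodes a SMAD of the BMP branch, fell in both lines (-0.46 ± 0.10 and -0.35 ± 0.10, adjusted p = 0.0154 and 0.0235), and DESeq2 did not call it in the miR-148a line (adjusted p = 0.0609). Smad6, the gene of the BMP branch's inhibitory SMAD and also on the target list, had a log2 fold change of 1.17 in both lines and passed in the miR-148a line (edgeR adjusted p = 0.0801 and 0.0326). With the block it passed in the control line too (adjusted p = 0.0354), and DESeq2 called it in neither (adjusted p = 0.203 and 0.0945). Runx1, which encodes a SMAD-binding transcription factor, rose in the control line (0.66 ± 0.16, edgeR adjusted p = 0.0228) and was at 0.38 ± 0.16 in the miR-148a line (adjusted p = 0.0967, with the block 0.0104). Ep300, the gene of the coactivator p300, rose in the miR-148a line (0.61 ± 0.17, adjusted p = 0.0272) and was at 0.52 ± 0.17 in the control line (adjusted p = 0.0667, with the block 0.000135, by DESeq2 0.0165). E2f4, whose product acts with SMAD3 in Myc repression, fell in the miR-148a line (-0.53 ± 0.11, edgeR adjusted p = 0.00880). With the replicate block 4 rose and 3 fell in the control line and 5 rose and 3 fell in the miR-148a line.

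Of 22 genes of receptor and SMAD turnover, 19 were tested. In the control line 0 rose and 1 fell, against 17.0% of all genes called, and in the miR-148a line 1 rose and 2 fell, against 28.7%. Strap, which encodes a protein that holds SMAD7 at the receptor, fell in both lines (-0.48 ± 0.13 and -0.71 ± 0.13, edgeR adjusted p = 0.0341 and 0.00411). Among miR-148a cells Fkbp1a, whose product keeps the type I receptor inactive, fell (-0.46 ± 0.11, adjusted p = 0.0151), and Usp11, a deubiquitinase gene, rose (0.88 ± 0.16, adjusted p = 0.00462). With the replicate block 1 rose and 5 fell in the control line and 1 rose and 4 fell in the miR-148a line. Of the calls named in these 5 lists, those of Usp11 and Strap in miR-148a cells were kept in all 8 fits that left out 1 library, and the others in 2 to 6 of 8.

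Between the lines, the 6 lists held 0 called genes without stimulation, against 0.487% of all genes. In each list 0 to 3 genes had an unadjusted p below 0.05, as did 720 higher and 566 lower of all genes. Without stimulation the replicate block called 0 to 3 genes in each list, DESeq2 0 or 1, and limma-voom 1 in a single list. Over all genes the block called 7.29%, DESeq2 68 higher and 91 lower, and limma-voom 28 higher and 29 lower. With anti-IgM, 4 genes were called, against 2.52% of all genes, and the block called 0 to 6 genes a list, against 16.1%. The 4 are named here after their values were seen. Smurf2, which encodes a ubiquitin ligase for TGF-beta receptors and SMADs, was higher in the miR-148a line (0.60 ± 0.11, adjusted p = 0.0330), as were Smad5 (0.52 ± 0.10, adjusted p = 0.0375) and Klf11 (0.82 ± 0.16, adjusted p = 0.0390). DESeq2 did not call Klf11 (adjusted p = 0.0550). Bcl2l11 was lower there (-1.02 ± 0.16, adjusted p = 0.0207). With 1 library left out, Bcl2l11 kept its edgeR call in 5 of 8 fits, Klf11 in 2, and Smurf2 and Smad5 in 0. The 3 higher genes had a difference of the same sign without stimulation, of 0.59, 0.42 and 0.73 in that order, which did not pass (adjusted p = 0.0604, 0.107 and 0.104) but passed with the replicate block (adjusted p = 0.000289, 0.00621 and 0.0113). Bmp1, a protease gene taken off the ligand list after its values were seen, was also higher with anti-IgM (0.78 ± 0.13, adjusted p = 0.0264), a call kept in 2 of 8 such fits.

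For the 7 genes called in a comparison, the genes with the most similar pattern of log2 CPM over the 8 libraries were sought among 9701 tested genes. Tgfb3 was most like Acacb, Zc3h6 and Hjurp, with Pearson's r of 0.995, 0.992 and 0.991. Smad3 was most like Tom1l2, Wdr90 and B9d2 (0.988, 0.987 and 0.985), and Tgfbr2 most like Ncoa3, Plekho1 and Nudt22 (0.995, 0.992 and 0.991). Tgif1 was most like Nr1d2, Ccdc101 and Smyd2 (0.993, 0.988 and 0.983), and Smad2 most like Nr1d2, Cdca7l and Smyd2 (0.982, 0.980 and 0.979). Skil was most like Zfp661, Lynx1 and Parp1 (0.984, 0.980 and 0.978). Ski was most like Ppp2r5a, Smad5 and Cbs (0.980, 0.980 and 0.979). All these points share libraries, treatment and replicate number, and the values are descriptions over 8 libraries.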

How the data were processed

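PolyA-selected RNA of 8 libraries was prepared with a directional kit, per the labels' protocols. The values deposited by the authors are expected counts, in 1 table per gene symbol, estimated and hence not always whole, with no normalisation. Per the submitters' processing notes, edgeR, Bowtie2, cutadapt, CASAVA 1.8, Partek 6.15.0730 and TopHat2 2.0.13 were used on mm10 (GRCm38). Which annotation was counted, and whether strand was used, is not given in the sources used here. In each library 9.55% to 12.8% of values were not whole, and counts were rounded for the tests. Dates in place of gene names stood in 27 rows (0.213% to 0.235% of counts), which were left out.

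Groups and replicate numbers follow the labels, whose prefix is 137 for replicate 1 and 143 for replicate 2. In R 4.3.3, edgeR 4.0.16 fitted 4 group means to all 8 libraries (filterByExpr, TMM factors, quasi-likelihood F test), adjusting by Benjamini-Hochberg over 11291 genes, with calls at 0.05. All groups shared 4 residual degrees of freedom and a biological coefficient of variation of 11.1%. Intervals cover 95% on 9.04 total degrees of freedom, which include those gained from sharing spread over genes. That of Tgfb3 uses the counting error where this is larger. Other fits used the replicate number as a block, DESeq2 1.42.0, limma 3.58.1 (voom), other scalings, no filter, unrounded counts, only the libraries compared, or all but 1 library. Replicates differed by more than sampling noise (mean chi-square per gene 9.82 to 14.1). In all 6 pairs of groups, deviations from the group mean were correlated between libraries of the same number (r of 0.495 to 0.569 across genes, which are not independent replicates). The numbers, which come from the label prefix, therefore pair the libraries. With the block the coefficient of variation was 5.98% on 3 degrees of freedom. Floors of 3 counts cover counting error only. The fit was also run on simulated counts that held no effect of the replicate number. That run therefore does not test the fit on libraries paired by number.

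The 10 genes and the lists were chosen with earlier results of these data known. Bmp1, which encodes a protease, was taken off the ligand list, and an older symbol of Nrros off the list of latent storage, after the values were seen. One gene of the SMAD target list is not reported here and was left out of its counts. Named were all 10 genes. From each list and response the rule took up to 4 called genes with the largest change, or up to 2 uncalled genes with the highest expression. It also took the 3 genes most like each called member (mean log2 CPM of at least 1). Positions and lengths are from GENCODE M21 (GRCm38), which held all 10 genes.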

Additional observations from a re-analysis of the deposited data

How the results depend on the processing

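Of the 10 genes in 5 comparisons, 376 values under another tool, scaling, filter or the replicate block stayed on their side of the threshold, 13 passed newly and 1 no longer passed. With 1 library left out, 370 values did, 28 no longer passed and 2 passed newly. None with a call reversed, and 34 changed sign with no call in either fit. The number of the 10 genes called with 1 library left out ran from 2 to 6 in the control response and from 2 to 7 in the miR-148a response. It ran from 0 to 1 in both line comparisons and stayed at 0 for the difference in response. Reported SMAD targets called ran from 2 to 11 in the control and from 7 to 11 in the miR-148a response. The calls over all genes also moved widely across these fits, in both responses and in both line comparisons. The ranges given here therefore do not set the listed genes apart from the rest. Leaving out a library leaves a group with 1 library, which is assumed to vary like the others. In the unstimulated line comparison the replicate block called 4 genes, DESeq2 2, no filter 1 and the 4 libraries alone 1, where none was called. With anti-IgM the block called 3, no filter 2, limma-voom 2 and the 4 libraries alone 0, where 1 was called. The block also added Tgfb1 in the miR-148a response (adjusted p = 0.00347) and changed no other call of the 10 genes. Over all genes it raised the calls of the responses from 1925 to 3929 and from 3238 to 5205, those between the lines from 55 to 823 and from 284 to 1822, and those of the difference from 0 to 11. Over all genes, the 4 libraries alone called 10 higher and 6 lower between the lines with anti-IgM, and 30 higher and 39 lower without stimulation. DESeq2 called 68 higher and 91 lower without stimulation, and the fit with no filter 78 and 101. With anti-IgM the fit with no filter called 255 higher and 195 lower, and limma-voom 140 higher and 119 lower. The cause of these changes was not tested. Depth limits Tgfb3 and the low target Id2, with 2 to 28 counts a library before stimulation.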
